A study of Mus musculus with 20 samples.

Results

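Smooth muscle contractile genes encode the proteins with which the muscle cells around airways and blood vessels generate force. The 10 genes described here, Acta2, Actg2, Myh11, Myl9, Mylk, Tagln, Cnn1, Smtn, Lmod1 and Des, were taken by their symbols from a table of 54532 mouse gene identifiers. Each symbol matched 1 identifier, and all 10 were among the 15106 genes tested. Gene expression was measured by RNA sequencing of whole lung in 4 groups of 5 libraries, all labelled as wild type. The SMD group received Shegan-Mahuang Decoction, a Chinese herbal formula, and the prednisone group received prednisone, a synthetic glucocorticoid used against asthma. The model group is the asthma model named in the series title, and the control group is labelled only as such. The design text gives 15 mice for each group. The sources used here do not give the strain, age, sensitising agent, doses or times, and the labels do not state in words that SMD and prednisone were given to model mice. Expression is in FPKM, fragments scaled to gene length and to the number of mapped fragments of the library, so levels can be compared between genes as levels per length.

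In smooth muscle, calcium bound to calmodulin activates myosin light chain kinase, which phosphorylates the regulatory light chain of myosin and lets the motor pull on actin filaments. Calponin, smoothelin and transgelin bind the actin filaments, leiomodin nucleates them, and desmin forms intermediate filaments that tie the contractile apparatus to the cell surface. Most genes of this programme are switched on by serum response factor, which binds a DNA element called the CArG box, together with its cofactor myocardin. In lung, they are expressed by the muscle of airways and vessels, and some also by pericytes and myofibroblasts.

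The prednisone lungs had the lowest mean level of 8 of the 10 genes, and the control lungs the highest of 8. Against the control group, 5 of 10 genes fell in the prednisone group (Acta2, Actg2, Myh11, Myl9 and Des) at an adjusted p under 0.05 by limma with Benjamini-Hochberg adjustment, where 1.79% of all tested genes fell. Against the model group, 2 of 10 fell in the prednisone group (Acta2 and Des), where 7.13% of all tested genes fell. Between the SMD and prednisone groups, 1 of 10 was higher with SMD (Acta2; 2.16% of all tested genes were higher). In the SMD group, 1 of 10 fell against the control group (Myh11; 0.761% of all tested genes fell) and none against the model group, where 2.15% of all tested genes changed. None of the 10 changed in the model group against the control group, where 0.192% of all tested genes changed. In bulk lung, fewer smooth muscle cells and less RNA per cell cannot be told apart.

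All 10 genes were detected in all 20 libraries, and the lowest single value was 1.45 FPKM, for Lmod1 in an SMD lung. Averaged over the 20 libraries, Tagln stood at 78.4 FPKM, Myl9 at 56.6, Acta2 at 43.8 and Des at 22.2. Myh11 followed at 11.7, Actg2 at 9.39, Smtn at 9.17, Cnn1 at 8.78, Mylk at 8.03 and Lmod1 at 2.14. From Tagln down to Myh11, each gene exceeded the next in 20 of 20 libraries. Myh11 exceeded Actg2 in 19 of 20, but Actg2 exceeded Smtn in only 11 of 20, Smtn exceeded Cnn1 in 12 of 20 and Cnn1 exceeded Mylk in 15 of 20. These last 4 genes were therefore not ordered beyond their spread, while Mylk exceeded Lmod1 in 20 of 20. Libraries held 14102 to 14707 genes at 1 FPKM or more. Their FPKM values summed to 377640 to 446711 in 19 libraries and to 522361 in control replicate 1.

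**Figure D1:**
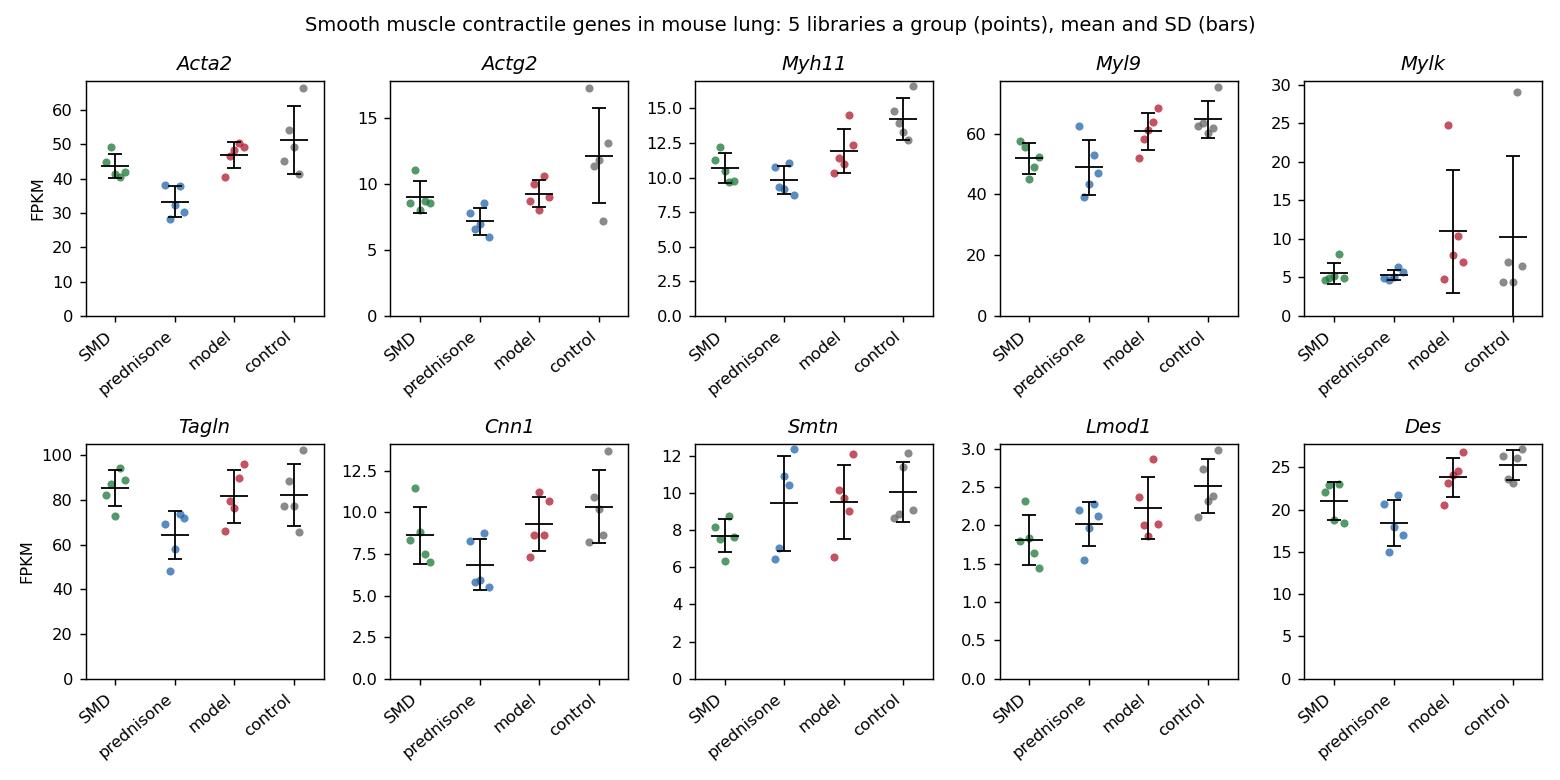
FPKM of each gene (vertical axis) in the SMD, prednisone, model and control groups (horizontal axis); points are libraries and black bars the mean and SD of 5, with the lower end of the control bar for Mylk cut at 0. The 5 prednisone points of Acta2 lie below every model point, and Mylk has 1 high point in the model and 1 in the control group.

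The upstream sequences of Acta2, Myl9 and Des are shown because these genes fell in the prednisone group and the CArG box is the element through which the programme is read. Actg2 and Myh11 fell as well, but no upstream sequence was given for them. The sequences shown are the 250 bases before the annotated start of each gene in the RefSeq annotation of GRCm38.p6, read in the direction of transcription: Acta2 on the minus strand at chr19:34255374-34255623, Myl9 on the plus strand at chr2:156775214-156775463 and Des on the plus strand at chr1:75360042-75360291. These starts differ from the gene positions given below, which come from GENCODE M21. The Acta2 window lies largely within the gene as placed there, the Myl9 window in part and the Des window not at all. Distances are counted from the RefSeq starts. Capitals mark CArG-box matches, searched as CC, then 6 bases of which at most 1 is G or C, then GG; the pattern reads the same on both strands.
Acta2: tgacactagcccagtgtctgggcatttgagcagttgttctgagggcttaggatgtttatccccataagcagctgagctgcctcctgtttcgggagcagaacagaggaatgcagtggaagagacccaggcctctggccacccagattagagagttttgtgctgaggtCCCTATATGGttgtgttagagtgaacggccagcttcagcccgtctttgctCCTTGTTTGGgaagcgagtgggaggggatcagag
Myl9: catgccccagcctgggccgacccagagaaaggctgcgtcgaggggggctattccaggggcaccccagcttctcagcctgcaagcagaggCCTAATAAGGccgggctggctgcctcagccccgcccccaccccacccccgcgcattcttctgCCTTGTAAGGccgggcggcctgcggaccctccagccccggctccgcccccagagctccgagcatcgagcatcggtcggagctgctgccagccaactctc
Des: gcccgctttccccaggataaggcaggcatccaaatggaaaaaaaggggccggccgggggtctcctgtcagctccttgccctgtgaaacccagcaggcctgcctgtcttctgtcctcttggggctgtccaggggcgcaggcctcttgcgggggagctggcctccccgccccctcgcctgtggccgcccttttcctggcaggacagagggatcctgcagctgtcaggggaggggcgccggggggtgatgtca
Acta2 held 2 matches, CCCTATATGG and CCTTGTTTGG, which begin 84 and 34 bases before the start, each with 1 G or C in its core. Myl9 also held 2, CCTAATAAGG with only A and T in the core, 161 bases before the start, and CCTTGTAAGG, 99 bases before it. No match lies in these letters of Des. Bases outside the windows were not searched, and a relation of matches to the falls was not tested. Windows were given for 7 of the 10 genes, not for Actg2, Myh11 and Tagln, and Acta2 and Myl9 were the 2 with a match. The windows of Mylk and Smtn lie wholly inside the genes as placed by GENCODE M21. Among 32851 windows of this length for all genes, 8.59% held a match and 1.47% held one with only A and T in the core. TGTTCT, a half-site of the glucocorticoid receptor element, was searched on both strands and occurs 2 times in the Acta2 window and 1 time in that of Mylk, against 16.1% of all windows with at least 1.

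The actins come first. Acta2 encodes smooth muscle alpha-actin, the main actin of vascular smooth muscle (chr19:34241090-34255590, minus strand, protein-coding, GRCm38). It had 44.8, 49.1, 41.4, 40.6 and 42.0 FPKM in the SMD lungs and 38.1, 28.4, 32.2, 37.7 and 30.2 FPKM in the prednisone lungs. The model lungs had 40.5, 46.5, 48.2, 50.3 and 49.1 FPKM and the control lungs 45.2, 54.1, 49.2, 41.3 and 66.5 FPKM. All 5 prednisone lungs lay below all 15 others. Acta2 fell to 33.3 ± 4.40 FPKM in prednisone lungs, against 46.9 ± 3.85 FPKM in model lungs (SD, n = 5 each); the log2 fold change was -0.49 ± 0.11 (SE), with a Benjamini-Hochberg adjusted p of 0.0119 by limma. Relative to the control lungs, at 51.2 ± 9.76 FPKM, the log2 fold change of the prednisone lungs was -0.60 ± 0.11 (adjusted p = 0.00546, limma). The SMD lungs, at 43.6 ± 3.46 FPKM, were higher than the prednisone lungs by 0.38 ± 0.11 on the log2 scale (adjusted p = 0.0475, limma), without overlap. Between SMD and model lungs Acta2 differed by -0.10, with a 95% interval of -0.33 to 0.12. The fall against the model lungs was no longer called after quantile normalization (log2 fold change -0.35, adjusted p = 0.137), and the difference between SMD and prednisone was lost in 18 of 27 alternative settings, where the adjusted p reached 0.114.

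Actg2 encodes the gamma-actin typical of visceral smooth muscle (chr6:83512905-83536265, minus strand, protein-coding). It had 8.56, 11.1, 8.03, 8.70 and 8.54 FPKM in the SMD lungs and 7.79, 6.57, 6.96, 8.54 and 5.98 FPKM in the prednisone lungs. In model lungs the values were 8.68, 9.98, 8.04, 10.6 and 8.99 FPKM and the control lungs 17.2, 11.4, 11.8, 7.23 and 13.1 FPKM. Prednisone and control lungs overlapped through control replicate 4, which was the lowest of its group. Actg2 fell to 7.17 ± 1.01 FPKM in prednisone lungs, against 12.1 ± 3.59 FPKM in control lungs (SD, n = 5 each). The log2 fold change, -0.65 ± 0.15 (SE, adjusted p = 0.0222, limma), was the largest among the 10 genes in this comparison. The call was lost in 6 of 27 alternatives, among them the one without control replicate 1, and the adjusted p reached 0.0856. Against the model lungs the log2 fold change was -0.33 ± 0.15 (adjusted p = 0.185). Reads can be shared between actins to a limited extent: the longest stretch that the transcripts of Acta2 and Actg2 have in common is 29 bases, their open reading frames are 84.2% identical, and the paired reads were 150 bases long. Cardiac Actc1 shared at most 38 bases with Actg2 and stood at 18.8 ± 4.16 FPKM in SMD, 17.8 ± 4.37 in prednisone, 21.6 ± 4.40 in model and 29.1 ± 10.4 in control lungs. The sources used here do not say how the authors' counting treated such reads, so the values of both actins are uncertain to that extent.

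The motor comes next. Myh11 encodes the smooth muscle myosin heavy chain, the marker most restricted to smooth muscle among the 10 (chr16:14194535-14291372, minus strand, protein-coding). It had 11.3, 12.2, 10.5, 9.67 and 9.77 FPKM in the SMD lungs and 10.8, 9.33, 9.18, 11.1 and 8.77 FPKM in the prednisone lungs. The model lungs had 10.3, 11.5, 11.0, 14.5 and 12.3 FPKM and the control lungs 14.8, 13.9, 13.3, 12.7 and 16.6 FPKM. All 5 SMD and all 5 prednisone lungs lay below all 5 control lungs, and the model lungs overlapped all 3 other groups. Myh11 fell to 9.83 ± 1.04 FPKM in prednisone lungs, against 14.3 ± 1.51 FPKM in control lungs (SD, n = 5 each), and the log2 fold change was -0.49 ± 0.09 (SE, adjusted p = 0.00614, limma). In SMD lungs it fell to 10.7 ± 1.08 FPKM, and the log2 fold change against control lungs was -0.38 ± 0.09 (adjusted p = 0.0462, limma). This call was lost in 22 of 27 alternatives, where the adjusted p reached 0.112, while the log2 fold change stayed between -0.43 and -0.33. Model lungs, at 11.9 ± 1.61 FPKM, differed from control lungs by -0.24 ± 0.09 (adjusted p = 0.215), and SMD lungs from prednisone lungs by 0.11, with a 95% interval of -0.08 to 0.30.

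Myl9 encodes the regulatory light chain that the kinase phosphorylates (chr2:156775420-156781658, plus strand, protein-coding). It had 57.5, 55.5, 44.9, 49.1 and 52.5 FPKM in the SMD lungs and 62.4, 39.0, 43.4, 52.8 and 47.0 FPKM in the prednisone lungs. In model lungs the values were 52.0, 58.1, 61.1, 63.8 and 68.4 FPKM and the control lungs 62.6, 63.6, 60.3, 61.8 and 75.5 FPKM. All 5 SMD lungs lay below all 5 control lungs, and prednisone replicate 1 alone of its group reached the control range. Myl9 fell to 48.9 ± 9.09 FPKM in prednisone lungs, against 64.8 ± 6.11 FPKM in control lungs (SD, n = 5 each; log2 fold change -0.41 ± 0.11, adjusted p = 0.0370, limma). This call was lost in 11 of 27 alternatives, where the adjusted p reached 0.107. For SMD against control the log2 fold change was -0.31 ± 0.11 (adjusted p = 0.152), and for prednisone against model -0.32 ± 0.11 (adjusted p = 0.0698), which passed the threshold only without prednisone replicate 1, at an adjusted p of 0.0206.

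Mylk encodes myosin light chain kinase, which starts contraction (chr16:34745210-35002420, plus strand, protein-coding). Its values were 4.71, 4.97, 5.13, 8.01 and 4.90 FPKM in the SMD lungs, and 4.94, 4.64, 5.02, 6.33 and 5.74 FPKM in the prednisone lungs. The model lungs had 4.77, 24.7, 7.92, 10.4 and 7.04 FPKM and the control lungs 4.39, 6.98, 4.47, 29.0 and 6.48 FPKM. Model replicate 2 and control replicate 4 stood apart from the other 18 libraries, which lay between 4.39 and 10.4 FPKM. Of 8509 tested genes with a mean of at least 5 FPKM, 7 had a second highest library at least 2 times the third highest, and Mylk was the only one of them with these 2 libraries on top. The residual spread of Mylk, 0.67 on the log2 scale, was larger than that of 98.3% of tested genes. No comparison of Mylk passed the threshold: the log2 fold change was -0.72 ± 0.39 for prednisone against model (adjusted p = 0.277) and -0.69 ± 0.39 for SMD against model (adjusted p = 0.355). Without the 2 high libraries these values were -0.40 (adjusted p = 0.224) and -0.36 (adjusted p = 0.314). Mylk is overlapped on the other strand by 3 genes (1700119H24Rik, E130310I04Rik and Gm21691), and the sources used here do not say whether the counting used strand.

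None of the 4 genes of actin-binding proteins passed the threshold in the 6 comparisons. Tagln encodes transgelin, also called SM22, an early marker of smooth muscle (chr9:45929619-45936058, minus strand, protein-coding). It had 82.5, 87.3, 73.0, 94.4 and 89.1 FPKM in the SMD lungs and 69.3, 48.4, 58.2, 73.6 and 71.8 FPKM in the prednisone lungs. In model lungs the values were 66.0, 79.7, 76.5, 89.9 and 96.3 FPKM and the control lungs 77.4, 88.4, 77.4, 65.7 and 103 FPKM. Prednisone replicates 2 and 3 were the lowest of the 20 libraries, and the other 3 prednisone lungs lay inside the range of the model lungs. Prednisone lungs, at 64.2 ± 10.7 FPKM, differed from model lungs, at 81.7 ± 11.8 FPKM, by -0.35 ± 0.13 on the log2 scale (adjusted p = 0.101, limma), and SMD lungs, at 85.2 ± 8.03 FPKM, from prednisone lungs by 0.41 ± 0.13 (adjusted p = 0.0704). Between SMD and model lungs the difference was 0.07, with a 95% interval of -0.20 to 0.33. Tagln lies opposite Pcsk7, a proprotein convertase gene with a median of 6.58 FPKM, and opposite the predicted gene Gm48529. Gm48529 averaged 7.43 ± 2.63 FPKM in SMD, 4.15 ± 0.539 in prednisone, 5.72 ± 1.95 in model and 5.23 ± 2.01 FPKM in control lungs, and without a known strand setting the levels of both are uncertain where they overlap.

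Cnn1 encodes calponin, an inhibitor of the myosin motor that binds actin (chr9:22099216-22109630, plus strand, protein-coding). It ranged from 7.04 to 11.5 FPKM in SMD, from 5.51 to 8.78 in prednisone, from 7.29 to 11.2 in model and from 8.19 to 13.7 FPKM in control lungs, with overlap between all groups. The prednisone lungs differed from the control lungs by -0.53 ± 0.15 on the log2 scale (adjusted p = 0.0577, limma), just short of the threshold, which was passed in 3 of 27 alternatives. Smtn encodes smoothelin, a protein of fully contractile smooth muscle (chr11:3517523-3540612, minus strand, protein-coding). Smtn ranged from 6.36 to 8.75 FPKM in SMD, from 6.43 to 12.4 in prednisone, from 6.54 to 12.1 in model and from 8.66 to 12.2 FPKM in control lungs. Its mean in prednisone lungs was 9.44 ± 2.58 FPKM, against 9.52 ± 2.01 FPKM in model lungs, a log2 difference of -0.03 with a 95% interval of -0.36 to 0.31, and its lowest mean was in SMD lungs, at 7.69 ± 0.884 FPKM. Lmod1 encodes leiomodin 1, which nucleates actin filaments in smooth muscle (chr1:135324807-135368065, plus strand, protein-coding). Lmod1 had 1.81 ± 0.326 FPKM in SMD, 2.02 ± 0.285 in prednisone, 2.22 ± 0.404 in model and 2.51 ± 0.352 FPKM in control lungs. Its log2 fold change was -0.32 ± 0.10 for SMD against control (adjusted p = 0.127), and at this low level the pseudocount of 1 makes the value understate the change. Smtn and Lmod1 are overlapped on the other strand by 2 and 1 predicted genes.

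Des encodes desmin, the intermediate filament protein of muscle, which cardiac and skeletal muscle express as well (chr1:75360329-75368579, plus strand, protein-coding, with the predicted gene Gm15179 opposite). It had 22.1, 23.0, 18.8, 23.0 and 18.4 FPKM in the SMD lungs and 20.7, 15.0, 18.0, 21.7 and 17.0 FPKM in the prednisone lungs. The model lungs had 20.5, 23.2, 24.1, 24.5 and 26.9 FPKM and the control lungs 26.4, 23.6, 23.1, 26.2 and 27.2 FPKM. Every SMD and every prednisone lung lay below every control lung, whereas prednisone replicates 1 and 4 reached into the range of the model lungs. Des fell to 18.5 ± 2.74 FPKM in prednisone lungs, against 23.8 ± 2.31 FPKM in model lungs (SD, n = 5 each; log2 fold change -0.36 ± 0.09, adjusted p = 0.0252, limma) and against 25.3 ± 1.81 FPKM in control lungs (log2 fold change -0.44 ± 0.09, adjusted p = 0.0137, limma). The call against the model lungs was lost in 11 of 27 alternatives, where the adjusted p reached 0.166. The call against the control lungs was kept in all 27, as were those of Acta2 and Myh11. In SMD lungs Des averaged 21.1 ± 2.26 FPKM, a log2 difference of 0.19 from the prednisone lungs with a 95% interval of -0.01 to 0.38. Since heart muscle also makes desmin, the 10 cardiac markers listed for this purpose are set beside it: their summed level was 96.4 to 148 FPKM in SMD, 76.0 to 259 in prednisone, 133 to 260 in model and 155 to 545 FPKM in control lungs. None of the 10 was under 0.1 FPKM in all libraries, and 9 were tested. Of these, 1 fell in SMD against control lungs, beside 0.761% of all tested genes, and none in the comparisons of prednisone. It was Myl7, an atrial light chain (log2 fold change -1.25 ± 0.29, adjusted p = 0.0437, limma). At an unadjusted p under 0.05, 9 of 9 were lower in SMD against control lungs (8.06% of all tested genes; median log2 fold change -1.11) and 4 of 9 in prednisone against control lungs (10.5% of all tested genes; median -0.65). Their part in the result of Des was not tested.

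The 6 comparisons share groups, so their values are given side by side and are not independent. For prednisone against control, the 10 log2 fold changes ran from -0.65 to -0.11 with a median of -0.46, beside a median of -0.00 over all tested genes. All 10 were negative, 8 had an unadjusted p under 0.05, where 10.5% of all tested genes did so with lower values, and 3 did not overlap (3.14% of all tested genes). For prednisone against model they ran from -0.72 to -0.03 with a median of -0.34, beside -0.05 over all genes, with 7 at an unadjusted p under 0.05 (18.5% of all tested genes) and 1 without overlap (6.68%). In this comparison the calls over all genes depend on the scaling: 138 genes were higher and 1077 lower as deposited, 203 and 492 with median-of-ratios scaling, and 153 and 172 after quantile normalization. The median of the 10 genes was -0.29 and -0.22 under these scalings.

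For SMD against control the log2 fold changes ran from -0.45 to 0.06 with a median of -0.32, beside -0.00 over all genes. In SMD lungs 6 of the 10 were lower at an unadjusted p under 0.05 (8.06% of all tested genes), and Myh11, Myl9 and Des did not overlap between the groups (2.58%). Over all genes, 44 were higher and 115 lower as deposited, and 91 and 122 after quantile normalization. For SMD against model they ran from -0.69 to 0.07 with a median of -0.16, beside -0.06 over all genes, and 1 had an unadjusted p under 0.05 (Myl9, lower; 15.7% of all tested genes). In that comparison 37 genes were higher and 288 lower as deposited, 40 and 61 with median-of-ratios scaling, and 43 and 49 after quantile normalization. For SMD against prednisone 8 of 10 were positive, with a median of 0.15, beside -0.00 over all genes, and 2 had an unadjusted p under 0.05 with higher values in SMD (Acta2 and Tagln; 9.70% of all tested genes), of which Acta2 did not overlap (2.74%). For model against control 9 of 10 were negative, with a median of -0.10, beside 0.05 over all genes, and 2 had an unadjusted p under 0.05 (Actg2 and Myh11, both lower; 2.81% of all tested genes).

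**Figure D2:**
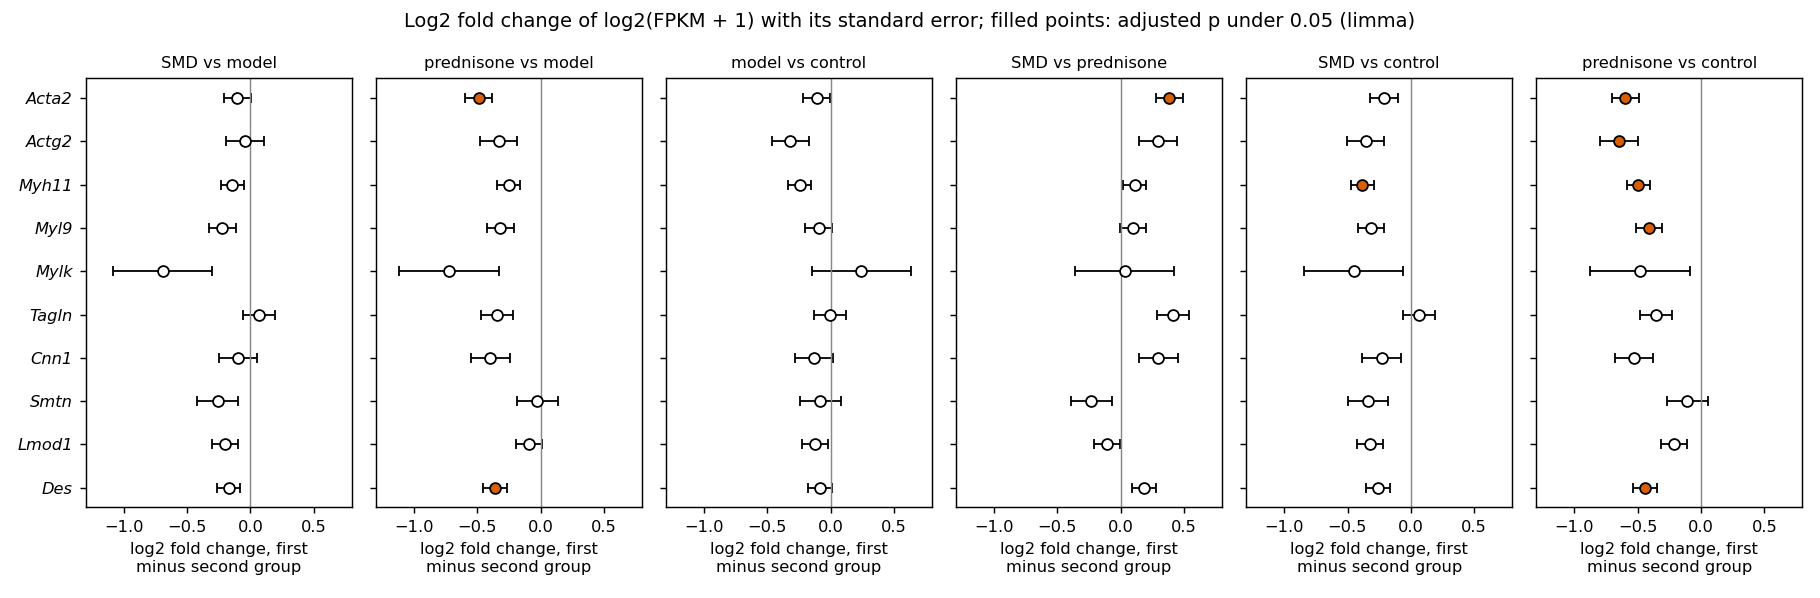
Log2 fold change of log2(FPKM + 1) with its standard error (horizontal axis) for each gene (rows) in the 6 comparisons (panels); filled points have an adjusted p under 0.05. Prednisone against control has 5 filled points, all to the left of 0, and SMD against model and model against control have none.

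Several of the genes were correlated from lung to lung within groups. With the group means removed, Pearson's r was computed for all 45 pairs over 20 libraries, with a permutation p from 100000 shuffles within groups, adjusted over the 45. Over all 45 pairs, r ran from -0.45 to 0.86 with a median of 0.41, and 16 had an adjusted p under 0.05. Among the 28 pairs that hold neither Smtn nor Mylk, r ran from 0.26 to 0.86 with a median of 0.60, and these held all 16. Both genes were set aside after their values were seen, which raises that median. Smtn with Mylk had r = 0.40 (permutation p adjusted 0.165). By Pearson's r, Acta2 and Myh11 each passed with 6 other genes, Lmod1 with 2 and Actg2 with 1, Myh11 (r = 0.65). Partners differed by Spearman's rank correlation. Myh11 did not pass with Des or Lmod1 by it (permutation p adjusted 0.0619 and 0.0944), and Actg2 passed with Acta2 (0.0426). Pairs of genes outside the 10 were not computed. The highest pair was Acta2 with Cnn1, at r = 0.86 (permutation p adjusted 0.0018), which was 0.85 without the 2 libraries farthest from the median of Acta2. Spearman's rank correlation of this pair was 0.85 (permutation p adjusted 0.0034). Acta2 with Myl9 and with Myh11 both had r = 0.78 (permutation p adjusted 0.0018). Of the 16 pairs of Smtn or Mylk with another gene of the 8, none had an adjusted p under 0.05, and r ran from -0.45 to 0.31. The libraries share depth and composition, which can move all genes of a library, and this was not separated from a change in smooth muscle. By the mean of log2 values over the 10 genes, prednisone replicate 2 was the lowest library, at 3.57, and control replicate 5 the highest, at 4.39.

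**Figure D3:**
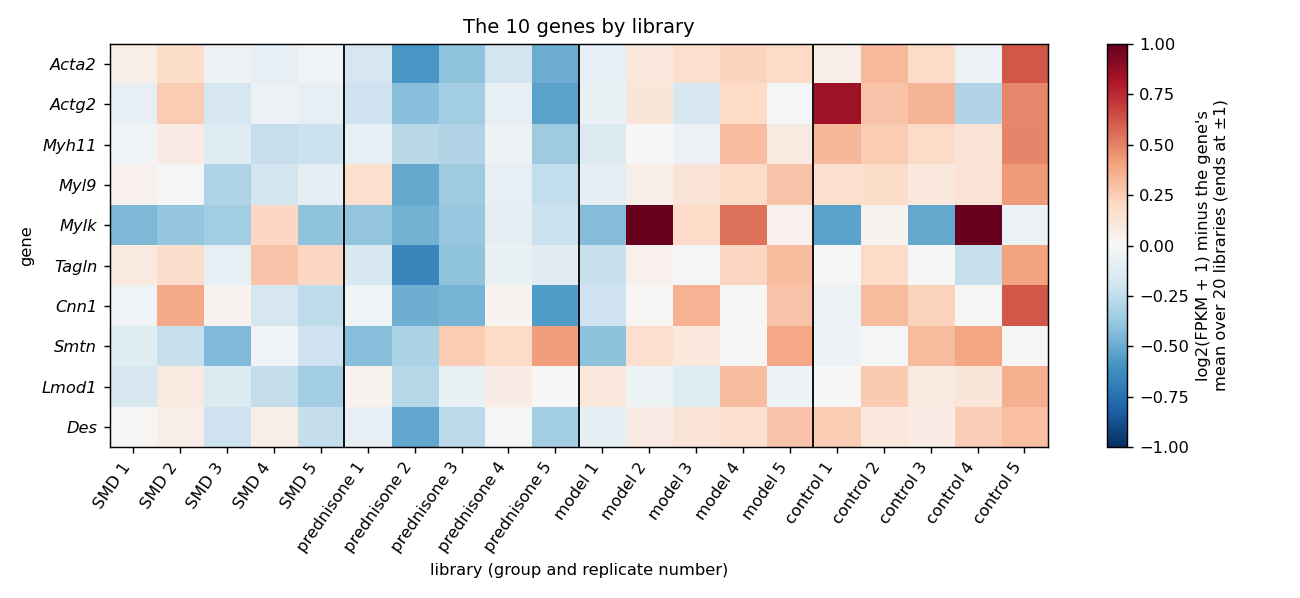
Level of each gene (rows) in each library (columns, by group and replicate number) as log2(FPKM + 1) minus the gene's mean over 20 libraries; red is above and blue below the mean. Prednisone replicate 2 is blue in all 10 rows, and the row of Mylk is red in model replicate 2 and control replicate 4.

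**Figure D4:**
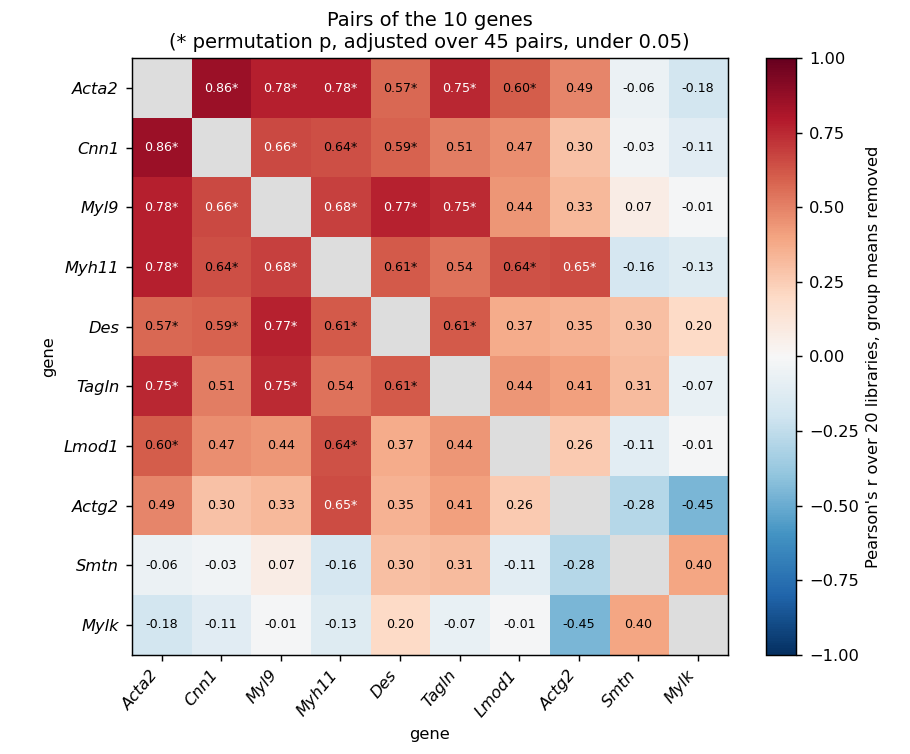
Pearson's r over 20 libraries with group means removed for each pair of genes (rows and columns); asterisks mark an adjusted permutation p under 0.05. The rows of Smtn and Mylk have no asterisk, and Acta2 with Cnn1 has the highest value, 0.86.

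Other genes of the contractile apparatus were read from lists of related genes. Of 23 tested contractile and cytoskeletal genes, 2 fell in prednisone against model lungs (8.70%, beside 7.13% of all tested genes). Myl6, the essential light chain shared by smooth muscle and non-muscle myosin, fell to 737 ± 79.2 FPKM in prednisone lungs, against 1008 ± 93.0 FPKM in model lungs (log2 fold change -0.45 ± 0.10, adjusted p = 0.00938, limma). Csrp1, a LIM-domain protein of smooth muscle, fell to 142 ± 10.8 FPKM in prednisone lungs, against 190.0 ± 14.3 FPKM in model lungs (log2 fold change -0.42 ± 0.08, adjusted p = 0.00713, limma), and it was higher in SMD than in prednisone lungs by 0.36. Control lungs had 151 ± 6.90 FPKM of Csrp1. Prednisone lungs differed from them by -0.09 ± 0.08 on the log2 scale (adjusted p = 0.536, limma), and model lungs by 0.33 ± 0.08 (adjusted p = 0.0826, limma). Myl6 also fell in prednisone against control lungs (log2 fold change -0.42), as 4.35% of the list, beside 1.79% of all tested genes. No other gene of the list passed the threshold in the 6 comparisons. The median of the list for prednisone against model was -0.15, beside -0.34 for the 10 genes.

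Among 23 tested genes of calcium and contraction signalling, 3 fell in prednisone against model lungs (13.04%, beside 7.13% of all tested genes). Ppp1r14a encodes CPI-17, an inhibitor of myosin phosphatase that keeps the light chain phosphorylated, and it had 42.2 ± 3.19 FPKM in prednisone lungs, against 60.0 ± 6.30 FPKM in model lungs, without overlap (log2 fold change -0.49 ± 0.09, adjusted p = 0.00713, limma). Dapk3, a kinase of the light chain, and Gna12, a G protein alpha subunit, fell by 0.31 and 0.21 on the log2 scale. Against control lungs, 3 of the 23 fell in prednisone lungs (13.04%, beside 1.79% of all tested genes). Ppp1r14a, the angiotensin II receptor gene Agtr1a and Gucy1a1, a subunit of the nitric oxide receptor, fell by 0.39, 0.42 and 0.40 on the log2 scale. In SMD lungs Agtr1a alone fell against control lungs, by 0.37 (4.35%, beside 0.761% of all tested genes). Of the 23, Ppp1r14a alone was higher in SMD than in prednisone lungs, by 0.38 (adjusted p = 0.0233, limma), beside 2.16% of all tested genes. The list median was -0.05 for prednisone against model and -0.02 for prednisone against control.

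Of 16 tested regulators of the smooth muscle programme, 1 fell in prednisone against model lungs (6.25%, beside 7.13% of all tested genes): Foxf1, a transcription factor of lung mesenchyme (log2 fold change -0.28 ± 0.08, adjusted p = 0.0353, limma). Tead4, a factor of the Hippo pathway, was lower in SMD than in prednisone lungs (log2 fold change -0.44 ± 0.11, adjusted p = 0.0297, limma), where 366 of 15106 tested genes were lower. No other tested regulator passed the threshold in the 6 comparisons. The myocardin gene Myocd averaged 0.071 FPKM and was not tested. Srf, the gene of serum response factor, had a log2 fold change of -0.25 ± 0.13 for prednisone against model (adjusted p = 0.263, limma). For prednisone against control it was -0.02 ± 0.13. The median over the regulators was 0.01 for prednisone against model and -0.01 for prednisone against control.

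Of 10 pericyte markers, 2 fell in prednisone lungs against both the model and the control lungs, beside 7.13% and 1.79% of all tested genes. They were Cox4i2 and Higd1b (log2 fold changes -0.33 and -0.28, and -0.43 and -0.35). Over the 10 pericyte markers the median log2 fold change was -0.203 against model and -0.238 against control lungs, with 8 negative in each. At an unadjusted p under 0.05, 4 and 5 were lower, beside 18.5% and 10.5% of all tested genes. The list summed to 99.3 to 115 FPKM in prednisone, 126 to 136 in model and 128 to 151 FPKM in control lungs. Cox4i2 alone made up 36.5% of the pericyte sum, and Higd1b was next, with an average of 35.1 FPKM. Higd1b and Pdgfrb, a pericyte receptor, were higher in SMD than in prednisone lungs by 0.26 and 0.40, beside 2.16% of all tested genes. Rgs5 fell in SMD against control lungs (log2 fold change -0.65), beside 0.761% of all tested genes. Of 10 fibroblast markers, 2 fell in prednisone against model lungs, beside 7.13% of all tested genes. They were Tcf21 and Inmt (log2 fold changes -0.47 and -0.38). Inmt alone made up 80.9% of the fibroblast sum, which was 1754 to 2172 FPKM in prednisone lungs, against 2421 to 2678 FPKM in model lungs, and was 1798 to 2222 FPKM in SMD and 2243 to 2470 FPKM in control lungs. Over the 10 fibroblast markers the median log2 fold change was -0.15 for prednisone against model, with 1 positive, and 0.14 for prednisone against control, with 6 positive, while the sum was lower in prednisone than in control lungs. No pericyte or fibroblast marker was under 0.1 FPKM in all libraries. The part of these cells in the results of the 10 genes was not tested.

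Of 8 airway epithelium markers, 1 fell in prednisone against model lungs (12.5%, beside 7.13% of all tested genes): Tppp3, of ciliated cells (log2 fold change -0.37). Foxj1, the master regulator of these cells, rose in prednisone against control lungs (0.48), as did 269 of 15106 tested genes. It was lower in SMD than in prednisone lungs (-0.45), where 366 of 15106 tested genes were lower. Foxj1 and Ccdc153 were not called in prednisone against model lungs (0.12 and -0.11), nor was Tppp3 in prednisone against control lungs (-0.04). The list median was -0.06 for prednisone against model, with 3 of 8 positive, and -0.12 for prednisone against control, with 2 positive. The airway sum was 41320 to 55760 FPKM in SMD, 36530 to 59450 in prednisone, 41570 to 57560 in model and 49160 to 57380 FPKM in control lungs, most of it from the club cell gene Scgb1a1, with up to 56310 FPKM. Of 5 mesothelium markers, 1 fell in SMD against model lungs, where 288 of 15106 tested genes fell: Msln (log2 fold change -0.40). At an unadjusted p under 0.05 by limma, 4 of the 5 were lower in that comparison (15.7% of all tested genes), with a list median of -0.40. In prednisone against model lungs 3 were lower (18.5% of all tested genes), all 5 were negative and the median was -0.37. Against control lungs the median of the prednisone lungs was 0.01, with 3 positive. The mesothelium sum was 80.0 to 110 FPKM in SMD, 84.6 to 116 in prednisone, 103 to 145 in model and 81.1 to 116 FPKM in control lungs. Skeletal muscle markers summed to 4.53 to 6.74 FPKM in SMD, 4.84 to 45.5 in prednisone, 6.40 to 11.7 in model and 6.22 to 18.2 FPKM in control lungs. The high end came from prednisone replicate 3, where the skeletal actin Acta1 had 12.2 FPKM. Of 10 skeletal markers, 1 was under 0.1 FPKM in all libraries and 4 were tested, none was called, and the 2 most abundant were Ckm and Tnni2, at 3.56 and 1.73 FPKM. Fat markers summed to 5.77 to 14.9 FPKM in SMD, 7.75 to 36.9 in prednisone, 11.2 to 191 in model and 20.7 to 323 FPKM in control lungs. None of the 5 fat markers tested was called, but all 5 were lower at an unadjusted p under 0.05 in SMD against control (median log2 fold change -2.37), SMD against model (-1.87) and prednisone against control (-1.81), where 8.06%, 15.7% and 10.5% of all tested genes were, and Cfd and Cidec were the most abundant, at 37.8 and 8.28 FPKM. Cartilage of the large airways was barely represented: 5 of its 6 markers stayed under 0.1 FPKM in every library, none was tested, and Hapln1 and Cnmd averaged 0.106 and 0.0256 FPKM. The part of these tissues was not tested.

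**Figure D5:**
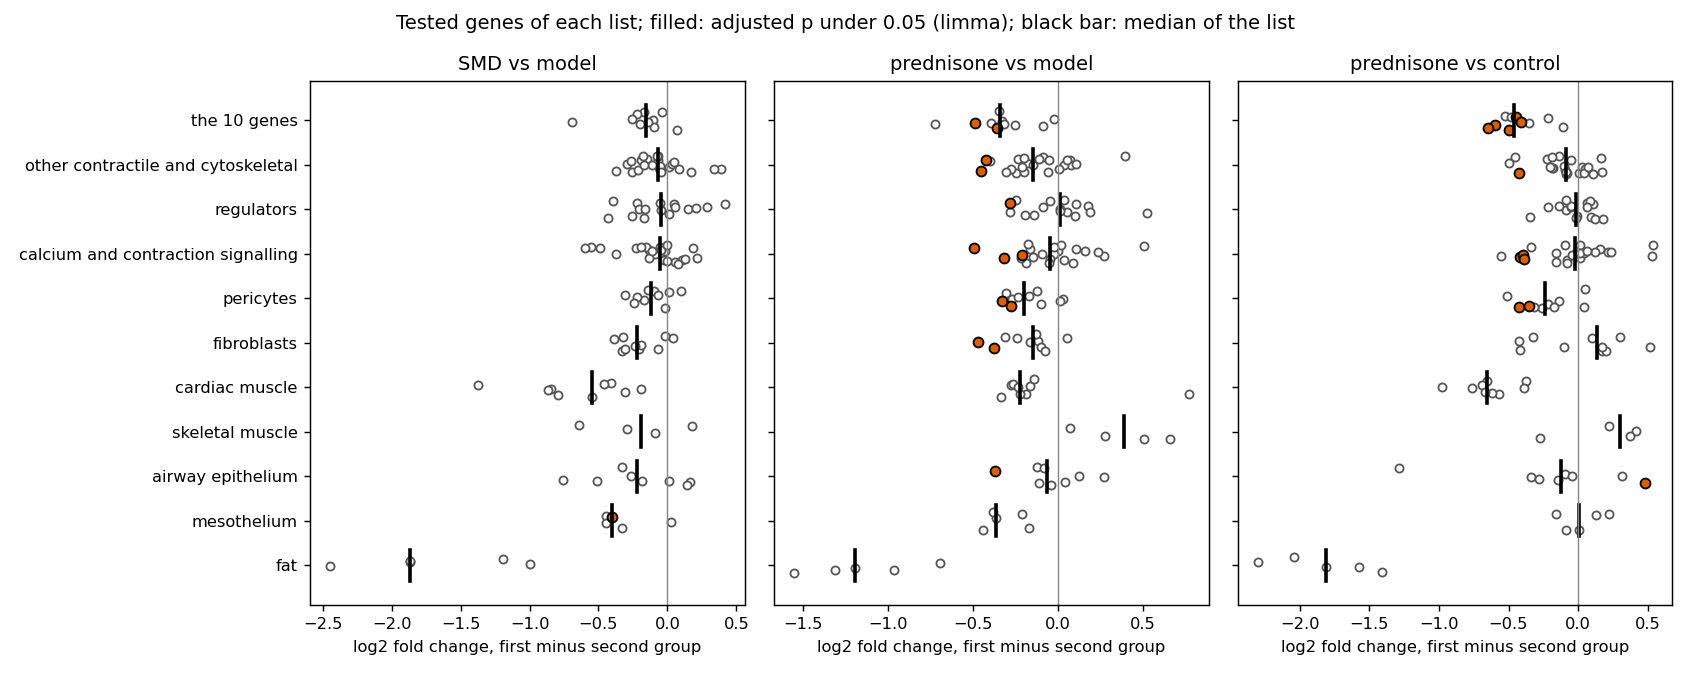
Log2 fold change (horizontal axis) of each tested gene of the lists (rows) in 3 comparisons (panels); filled points have an adjusted p under 0.05 and black bars mark the list medians. The median of the 10 genes is -0.34 for prednisone against model and -0.46 for prednisone against control, and the fat markers lie farthest to the left without being called.

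The genes whose pattern was most like the mean log2 level of the 10 were ranked by Pearson's r over the 20 libraries, with group differences kept. The 10 highest were Ehd1, an endosomal recycling protein (r = 0.89), Ltbp4, an elastic fibre protein (0.88), Gsn, the actin-severing protein gelsolin (0.87), Mir1668 (0.86), the transcription factor gene Jun (0.85), Rtl8b and Sema3g (both 0.84), Atp2a3, Nt5dc2 and Adgre5 (each 0.83). These genes were chosen for their r, so no test is given. Mir1668 lies within Adgre5 on the same strand, and its level cannot be told apart from reads of that gene. Without the 2 libraries farthest from the median of the mean level, prednisone replicate 2 and control replicate 5, r lay between 0.73 for Adgre5 and 0.84 for Ltbp4. Against the mean of the other 9, Des had the highest r among the 10 genes themselves, at 0.92, and Mylk and Smtn the lowest, at 0.24 and 0.28.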

How the data were processed

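Per the labels' protocols, RNA of whole mouse lung was prepared with the NEBNext Ultra kit and read as pairs of 150 bases on a NovaSeq 6000. The authors deposited FPKM values per gene and library, and no counts. The authors used HISAT2, fastp, DESeq2 and featureCounts with build GRCm38, per the submitters' processing notes; the sources used here give no version, annotation or strand setting. Low values of 13737 single-exon genes were within 0.05 of a whole multiple of 1 read in at most 12.2% to 15.4% per library, against 10% by chance. Depth is therefore unknown, and the precision is given only by the spread between libraries.

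Gene symbols were paired with 54409 of the 54532 identifiers through GENCODE M21, which also gave positions. Tested genes had 1 FPKM or more in 5 or more of the 20 libraries, and the test ran on log2(FPKM + 1) with limma 3.58.1 in R 4.3.3, in 1 fit of all 20 libraries without covariates (eBayes with trend, two-sided), and p-values were adjusted by Benjamini-Hochberg over 15106 genes within each of 6 comparisons. The pseudocount understates the changes of low genes. Intervals of 95% come from the same fit. The script was tested on simulated data. Correlations, tables and figures used Python 3.11.15, numpy 2.4.6, pandas 2.3.3 and scipy 1.17.1, and actin transcripts were aligned with Biopython 1.88.

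Groups and replicate numbers follow the labels; for prednisone replicate 5 the title's number was used, since its treatment label repeats that of replicate 1. The labels do not state that libraries of a group came from separate animals, so p-values measure the spread between these libraries, which may be technical in part. The 10 genes and the lists were chosen with earlier results of these data known. Of each list the called genes were named, at most 4 by size of change, or the 2 most abundant where none was called, and the 10 genes most like the members were named by r, leaving out predicted genes, pseudogenes and antisense RNAs. Mkl1, Mkl2 and Zipk are older names of genes listed under their current symbols. Each result was recomputed under 27 alternatives: another pseudocount (0.1), no filter, median-of-ratios scaling, quantile normalization, only the groups compared, the replicate number as a block, each library left out, and, chosen after the data were seen, without control replicate 4 and model replicate 2. The ratio of Tagln to Myl9 was also chosen after its values were seen.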

Additional observations from a re-analysis of the deposited data

Results flagged for a closer look

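In 40 groups of 5 libraries (10 genes in 4 groups), 5 held a library that stood apart from the other 4 by Dixon's criterion, where chance gives about 1 in 20. Mylk had 3 of them: control replicate 4 at 29.03 FPKM, model replicate 2 at 24.75 FPKM and SMD replicate 4 at 8.012 FPKM. Actg2 had 11.09 FPKM in SMD replicate 2, above the other SMD lungs, and Myl9 had 75.45 FPKM in control replicate 5, above the other control lungs. In control replicate 4 and model replicate 2, the mean log2 level of the 9 genes other than Mylk was 4.20 in both, ranked 10 and 8 from the highest of 20 libraries.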

How the results depend on the processing

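Of 1620 values of single genes under 27 alternatives, 1524 kept their direction and their side of the threshold, 69 lost a call, 4 gained one and 23 turned their sign, none of the last among called genes. The number of the 10 genes called was 0 in every alternative for model against control and SMD against model. For prednisone against model it was 2, and 1 without the filter, when scaled by median-of-ratios, with only the groups compared and without control replicate 4 and model replicate 2, 0 after quantile normalization, and 1 to 3 when single libraries were left out. For prednisone against control it was 5, and 3 without the filter and with only the groups compared, 4 after quantile normalization and without control replicate 4 and model replicate 2, and 3 to 6 when single libraries were left out. For SMD against prednisone it was 1, and 0 without the filter, with either other scaling and with the replicate block, and 0 to 1 when single libraries were left out. For SMD against control it was 1, and 0 without the filter, with either other scaling, with only the groups compared, with the replicate block and without the 2 libraries high for Mylk, and 0 to 1 when single libraries were left out. The cause was not tested.

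The calls lost by leaving out 1 library were these. Des, prednisone against model, lost its call without prednisone replicates 2, 3 or 5 or model replicates 2, 3 or 5. Acta2, SMD against prednisone, lost it without any SMD library, prednisone replicates 2, 3 or 5, model replicates 2 to 5 or control replicates 2 or 3, at log2 fold changes of 0.33 to 0.41 in these settings. Myh11, SMD against control, lost it without any SMD or control library, prednisone replicates 2, 3 or 4 or model replicates 2, 3 or 5. Actg2, prednisone against control, lost it without prednisone replicates 2, 3 or 5 or control replicate 1, at -0.64 to -0.52. Myl9, prednisone against control, lost it without prednisone replicates 2, 3 or 5 or control replicates 1, 2, 4 or 5, at -0.43 to -0.33.

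The values that turned their sign belonged to uncalled results. With single libraries left out, the log2 fold change for model against control ran from -0.0829 to 0.0756 for Tagln (above 0 without model replicates 1 or 3 or control replicates 2 or 5), from -0.1653 to 0.0337 for Smtn (above 0 without model replicate 1) and from -0.086 to 0.6836 for Mylk (below 0 without model replicate 2). For SMD against model it ran from -0.1119 to 0.0049 for Actg2 (above 0 without model replicate 4) and from -0.0053 to 0.1296 for Tagln (below 0 without model replicate 1). For prednisone against model it ran from -0.1406 to 0.0871 for Smtn (above 0 without prednisone replicates 1 or 2 or model replicates 2 or 5). It ran from -0.0891 to 0.0863 for Mylk, SMD against prednisone (below 0 without SMD replicate 4 or prednisone replicate 2), from -0.0151 to 0.1433 for Tagln, SMD against control (below 0 without control replicate 4), and from -0.2052 to 0.0064 for Smtn, prednisone against control (above 0 without prednisone replicate 1). Median-of-ratios scaling turned Actg2 for SMD against model (0.0143) and Smtn for prednisone against model (0.0163), and quantile normalization gave 0.0244 and 0.0298 for these and 0.0104 for Acta2, SMD against model. Without control replicate 4 and model replicate 2, Smtn for prednisone against model was 0.0007 and Tagln for SMD against control -0.0151.

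No pairing by replicate number was seen: the deviations of same-numbered libraries from their group means correlated at -0.18 to 0.24 over 30 pairs, with a median of -0.00. Other pairs ran from -0.28 to 0.25. The check cannot exclude shared handling or batches, on which the labels are silent. With the replicate block, 0 of the 10 genes were called for model against control, SMD against model, SMD against prednisone and SMD against control, 2 for prednisone against model and 5 for prednisone against control.

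Over all genes, the count of calls ranged from 0 to 111 for model against control (29 in the fit reported), 53 to 527 for SMD against model (325), 325 to 1695 for prednisone against model (1215), 453 to 926 for SMD against prednisone (693), 16 to 217 for SMD against control (159) and 229 to 741 for prednisone against control (540). Depth is unknown, so its part in the spread between libraries was not measured.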

Other observations

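The ratio of Tagln to Myl9 within a library does not depend on scaling between libraries. It was 1.43, 1.57, 1.63, 1.92 and 1.70 in the SMD lungs, 1.11, 1.24, 1.34, 1.39 and 1.53 in the prednisone lungs, 1.27, 1.37, 1.25, 1.41 and 1.41 in the model lungs and 1.24, 1.39, 1.28, 1.06 and 1.36 in the control lungs. All 5 SMD lungs lay above all model and control lungs, and 1 prednisone lung, at 1.53, reached into the range of the SMD lungs. The ratio of Tagln to Acta2 was 1.764 to 2.326 in SMD and 1.704 to 2.373 in prednisone lungs. It was 1.585 to 1.962 in model and 1.541 to 1.715 in control lungs. By that ratio the SMD lungs overlapped the prednisone and the model lungs and lay above the control lungs. Tagln made up 34.8 ± 2.25% of the summed FPKM of the 10 genes in SMD lungs, 31.2 ± 2.18% in prednisone, 30.6 ± 1.55% in model and 28.9 ± 2.59% in control lungs (SD, n = 5 each). The ratio of Tagln to Myl9 was chosen after its values were seen, and no test is given for either ratio. The gene Gm48529 on the strand opposite Tagln was also highest in the SMD group, at 7.43 ± 2.63 FPKM, and its part in these ratios was not tested.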
